A study of Mus musculus with 6 samples.

Results

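Histone genes were followed in 2 fractions of mouse bone marrow, as the 83 of 23746 gene loci whose symbol begins with Hist1h to Hist4h, H2af or H3f3. They come down to 77 symbols, 67 of clustered genes (6 H1, 18 H2A, 18 H2B, 12 H3 and 13 H4) and 10 of replacement variants (8 of the H2A type and 2 of the H3 type). The clustered class is set by symbol alone, and it includes a pseudogene (Hist3h2bb-ps) and loci that span more than a bare coding unit, such as Hist1h2be over 37455 and Hist1h2bc over 8282 bases, named after their values were seen. Of the clustered genes, 53 lie on chromosome 13, 10 on chromosome 3, 3 on chromosome 11 and 1 on chromosome 6. Marrow came from C57BL/6 mice of 12 weeks that were wild type (WT), Diap1 +/- (Het) or Diap1 -/- (KO), with 4 mice of each genotype in a pool. Diap1 encodes a formin, a protein that builds actin filaments. From each pool, magnetic beads took out the cells that carry both Gr1 and Mac1, which mark granulocytes and monocytes (Gr1+Mac1+), and the rest was depleted of committed cells down to progenitors (Lin-). This gave 6 libraries of total RNA, 1 for each genotype and fraction, so that no group has a replicate. Levels are FPKM, fragments scaled by transcript length and by library size, each with the confidence interval deposited beside it.

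Histones are the proteins on which DNA is wound. Most clustered genes are replication-dependent: as a rule they lack introns, are copied mainly in S phase, and their messages end in a conserved stem-loop in place of a poly(A) tail. Stem-loop binding protein (Slbp) holds that end, and the message is broken down when DNA synthesis stops. Replacement variants are made outside S phase too, most of them as spliced, polyadenylated messages, while H2afx has no intron and is known in both a stem-loop and a polyadenylated form: H3f3a and H3f3b both encode H3.3, H2afz and H2afv encode forms of H2A.Z, H2afx encodes H2A.X of the DNA damage response, and H2afy encodes macroH2A1.

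The stem-loop is the hallmark of the clustered messages and is shown here for members that the results turn on and for the 3 forms that were found. The sequences are from GENCODE transcripts on GRCm38, the build that mm10 names, and capitals mark the 16 bases of the stem and loop.
Hist1h1c: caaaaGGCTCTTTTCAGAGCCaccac
Hist1h2bg: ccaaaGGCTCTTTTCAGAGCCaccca
Hist1h2bf: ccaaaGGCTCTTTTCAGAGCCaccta
Hist3h2ba: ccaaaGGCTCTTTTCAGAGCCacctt
Hist1h4n: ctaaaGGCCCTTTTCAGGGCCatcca
Hist1h4j: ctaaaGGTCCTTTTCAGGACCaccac
They lie at chr13:23739507-23739532 (plus strand), chr13:23571838-23571863 (plus), chr13:23573760-23573785 (minus), chr11:58949344-58949369 (plus), chr13:21831793-21831818 (minus) and chr13:21735432-21735457 (plus). The annotated transcript runs on for 840 bases past the stem-loop in Hist1h1c, 385 in Hist1h4j, 169 in Hist3h2ba, 155 in Hist1h2bg, 31 in Hist1h4n and 29 in Hist1h2bf. A stem-loop of this kind was found in transcripts of 35 of the 67 clustered genes and of 0 of the 10 replacement genes, against 0.0748% of 58797 protein-coding transcripts. The form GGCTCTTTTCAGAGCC stood in 26 genes, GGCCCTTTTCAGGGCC in 7 and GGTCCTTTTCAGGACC in 2. For 11 of the other clustered genes the annotated transcript ends with the coding sequence, so this end is not in the model. A further 21 have neither a match to the pattern searched nor such a model. The pattern was strict, so a miss does not show that a stem-loop is absent.

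At the other end of the genes, the 120 bases before the start show which short motifs the members share. The sequences are from RefSeq on GRCm38.p6, for a linker histone and an H2B gene that were high in Gr1+Mac1+ cells and for a pair of abundant replacement genes. Capitals mark the motifs named in the sentences that follow, on either strand; in H2afz a CCAAT overlaps an E2F-type motif of the other strand.
Hist1h1c: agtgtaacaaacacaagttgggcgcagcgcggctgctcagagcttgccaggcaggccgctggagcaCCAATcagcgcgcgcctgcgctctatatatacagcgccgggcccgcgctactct
Hist1h2bg: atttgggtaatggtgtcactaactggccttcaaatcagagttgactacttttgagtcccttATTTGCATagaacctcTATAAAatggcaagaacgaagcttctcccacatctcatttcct
H3f3b: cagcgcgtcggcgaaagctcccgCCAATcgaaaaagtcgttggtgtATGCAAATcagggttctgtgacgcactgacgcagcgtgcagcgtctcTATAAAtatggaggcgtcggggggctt
H2afz: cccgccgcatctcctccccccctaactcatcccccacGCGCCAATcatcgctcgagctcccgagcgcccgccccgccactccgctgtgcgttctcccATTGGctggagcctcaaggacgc
They cover chr13:23738687-23738806 (plus strand), chr13:23571280-23571399 (plus), chr11:116024505-116024624 (minus) and chr3:137864367-137864486 (plus). Over 250 bases before the start, on both strands, CCAAT stood in 81.4% of the 59 clustered promoters that were matched, against 33.8% of 32851 RefSeq promoters. All 6 H1, 17 H2A and 14 H2B promoters held it, and 3 of 12 H4 promoters did. TATAAA, a core promoter element, stood in 49.2% of the clustered promoters against 12.4% of all. ATTTGCAT, the octamer known from H2B genes and searched only after the sequences had been seen, stood in 22.0% against 1.6% of all, in 7 of 17 H2A and 6 of 14 H2B promoters and in none of the 6 H1, 10 H3 and 12 H4 promoters. An E2F-type motif, searched as TTGGCGC, also as TTCCCGC and also as TTCGCGC, stood in 23.7% against 6.69%. Of the 7 replacement promoters matched, 5 held CCAAT and 1, that of H3f3b, held TATAAA. The windows of some neighbours on opposite strands, such as Hist1h2ae and Hist1h2bg, share most of their bases. A motif there was counted for both genes, so the 59 clustered promoters are not all separate stretches of DNA. The H2A and H2B counts of ATTTGCAT are therefore not independent of each other. A match of letters is a description and says nothing of a factor.

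Diap1, the targeted gene, was lower with fewer intact copies in both fractions. WT, Het and KO had 36.0, 24.2 and 6.07 FPKM among the Lin- libraries, against 57.1, 34.1 and 4.07 among the Gr1+Mac1+ libraries. Which exons were removed is not given in the sources used here. Itgam, which encodes a chain of Mac1, was between 293.0 and 311.2 FPKM in the Gr1+Mac1+ libraries and Kit, a progenitor receptor, between 66.4 and 84.7 in the Lin- libraries. The Het Lin- library stood apart: its summed FPKM over 12 neutrophil granule and maturation markers was 8040, against 51.9 in WT and 69.7 in KO Lin-, and 136500 to 164700 in Gr1+Mac1+ cells. The Gr1+Mac1+ libraries also held other cells' markers. Their summed B lineage markers were 255.1 to 298.9 FPKM, against 10.9 to 24.7 in Lin-, with 8 of 8 genes higher, and their summed erythroid markers were 334.3 to 561.9, against 841.3 to 890.2, with 9 of 13 genes higher in Lin- and 2, Alas2 and Slc4a1, higher in Gr1+Mac1+. Markers of monocytes and macrophages (8 of 8), primary granules (4 of 4) and T and NK cells (6 of 8) were higher in Gr1+Mac1+, those of megakaryocytes (6 of 6), stroma (5 of 5 tested) and progenitors (4 of 6) higher in Lin-, and no marker list had a member at 0 in every library. What these cells contribute to the histone values was not tested, and in bulk RNA fewer cells of a type and less RNA per cell cannot be told apart.

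The clustered histone messages were rare in these libraries and the replacement messages abundant. Over the 65 clustered genes with a complete estimate in all libraries, the mean FPKM had a median of 1.52 for Lin- and of 2.61 for Gr1+Mac1+ cells. Of all 67, 24 reached an FPKM of 5 in any library, 6 reached 10, and Hist1h1c, which encodes the linker histone H1.2, alone reached 50. By their mean over the 6 libraries, H2afz, H3f3a, H3f3b, H2afy and H2afx were the 5 highest members, in this order. Hist1h1c (39.6) came next, above H2afv (36.6), and Hist1h4i (20.3), Hist1h2bg (19.3) and Hist1h2bc (17.3) lay above H2afj (16.6).

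**Figure D1:**
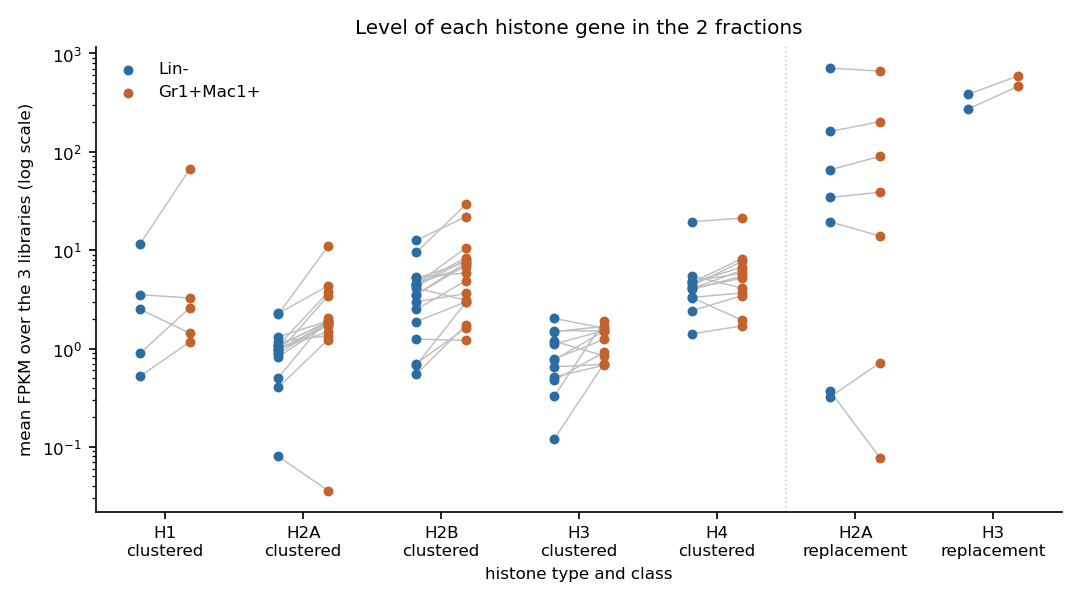
Mean FPKM (log scale) of each histone gene over the 3 Lin- libraries (blue) and the 3 Gr1+Mac1+ libraries (orange), by histone type, with a grey line joining the values of a gene; 4 genes that are at 0 in a fraction or lack a complete estimate are not drawn. H2afz, H3f3a and H3f3b stand above 200 FPKM, while Hist1h1c is the highest clustered gene at 67.5 in Gr1+Mac1+ cells.

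H2afz, for H2A.Z, was the most abundant member, at 707.4 (WT), 708.7 (Het) and 713.9 (KO) FPKM in Lin- and 651.4, 592.0 and 743.9 in Gr1+Mac1+ cells. The fractions overlapped, since the KO Gr1+Mac1+ library was the highest of all 6. H3f3a stood at 333.5, 393.1 and 431.7 in Lin- and at 583.3, 537.5 and 651.7 in Gr1+Mac1+ cells. H3f3b, the other gene for the same protein, stood at 261.5, 284.0 and 276.8 in Lin- and at 481.0, 439.1 and 469.9 in Gr1+Mac1+ cells. For both H3.3 genes all 3 Gr1+Mac1+ libraries lay above all 3 Lin- libraries. H2afy2 and H2afy3 stayed at or below 1.11 FPKM in every library, and H2afb1 was listed at 0 in all 6.

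Few fragments lay behind each clustered value. The width of the deposited interval implies a fragment number, and its median per clustered gene was 6.0 to 7.4 for Lin- and 8.4 to 11.1 for Gr1+Mac1+ libraries, with 42 to 55 of 65 genes under 20. Summed over the clustered genes, it came to 1075 to 1121 fragments in Lin- and 2275 to 3520 in Gr1+Mac1+ cells, against 21776 to 22316 and 27136 to 34466 over the 10 replacement genes. These intervals cover counting error only.

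Near-identical coding sequences bear on single clustered genes as well. The median identity between coding sequences was 97.6% among clustered H3 genes, 96.4% among H2A, 94.8% among H2B and 93.9% among H4 genes, and the lowest pair was at 77.6%, for H2A. Hist1h2bc and Hist1h2bg were 98.7% identical over 381 bases, and Hist2h2aa1 and Hist2h2aa2 did not differ at any base. Fragments of such copies can be split between genes by the authors' estimation. In the KO Gr1+Mac1+ library Hist1h4a, Hist1h4b and Hist1h4k had 1 and the same value, 6.09 FPKM. By contrast, H3f3a and H3f3b were 76.9% identical, and clustered and replacement H3 genes 77.1% to 81.8%.

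Sums over a histone type depend less on how fragments were divided among near-identical copies, though FPKM divides by length and members differ in it. The clustered genes together gave 187.8 (WT), 174.4 (Het) and 194.0 (KO) FPKM in Lin- and 366.6, 356.3 and 323.1 in Gr1+Mac1+ cells, a ratio of means of 1.88. No Gr1+Mac1+ library came down to the range of the Lin- libraries. Clustered H1, which binds the linker DNA between nucleosomes, stood at 19.1 ± 1.18 (SD over the 3 pools) in Lin- and 76.0 ± 5.57 in Gr1+Mac1+ cells, a ratio of 3.98 that fell to 1.15 without Hist1h1c. H2A genes went from 16.9 ± 3.19 to 41.5 ± 3.85 and H2B genes from 72.2 ± 8.87 to 135.0 ± 17.8. H3 and H4 genes, which form the core tetramer, moved least, from 11.0 ± 2.67 to 14.8 ± 1.47 and from 66.3 ± 1.40 to 81.4 ± 5.18, and the H3 values of the fractions lay close to each other, with WT Lin- at 13.9 and KO Gr1+Mac1+ at 13.4.

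**Figure D2:**
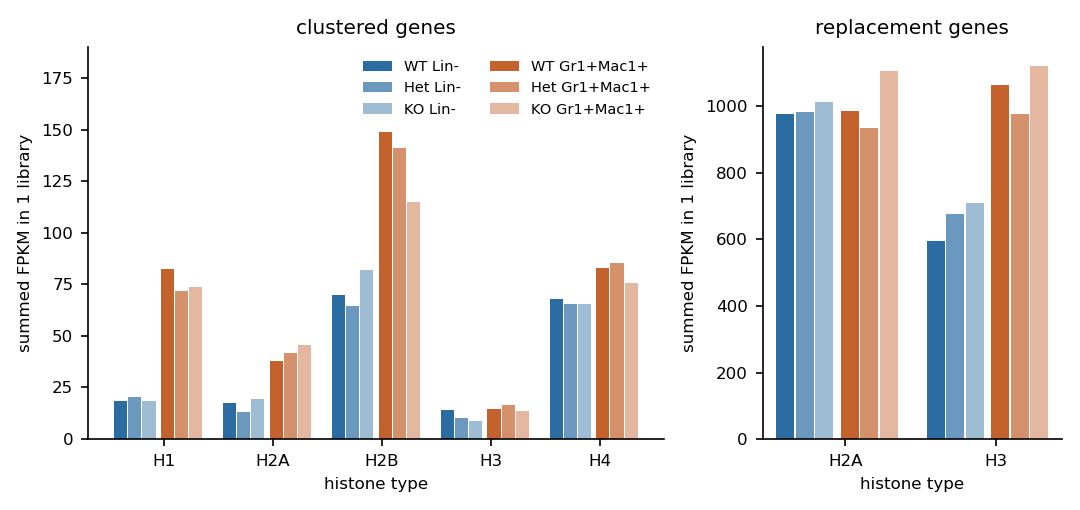
Summed FPKM of the clustered genes (left) and of the replacement variants (right) of each histone type, with 1 bar for each of the 6 libraries and separate scales. Clustered H1, H2A, H2B and H4 bars of Gr1+Mac1+ cells stand above all Lin- bars, while those of H3 overlap. Replacement H3 rises from 595.0 to 708.5 in Lin- to 976.6 to 1122 in Gr1+Mac1+ cells.

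Replacement variants made up nearly all of the measured H2A and H3 message. Clustered genes held 1.34% to 1.89% of the summed H2A FPKM in Lin- and 3.68% to 4.25% in Gr1+Mac1+ cells, and 1.22% to 2.29% and 1.18% to 1.64% of the summed H3 FPKM. The clustered share of H2A was thus higher in each Gr1+Mac1+ library than in any Lin- library, and that of H3 overlapped. Whether these libraries were made from poly(A)-selected RNA is not given in the sources used here.

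The fractions were compared over the 3 pools with limma on log2(FPKM + 1), a fit across all 11489 genes with a mean FPKM of at least 1, in which each pool of mice is a block. Each pool is also a genotype. The spread behind an SE or p therefore also holds differences of genotype between the fractions, and none between pools of the same genotype. A gene counts as higher in a fraction at a Benjamini-Hochberg adjusted p under 0.05, and ratios are given as Gr1+Mac1+ minus Lin-. Of all genes tested, 30.4% were higher in Gr1+Mac1+ and 51.6% higher in Lin- cells, and their median lay 0.33 toward Lin-. The clustered histone genes lay the other way. Of the 57 that were tested, 28 (49.1%) were higher in Gr1+Mac1+ cells and 0 higher in Lin- cells (also 0 at an unadjusted p under 0.05), 49 had a positive ratio, and their median was 0.48. A further 8 clustered genes were under a mean FPKM of 1 and 2 lacked a complete estimate in some library. The filter takes the mean over both fractions, so several of the called genes passed it only through their Gr1+Mac1+ values. Hist2h3c1, for example, had a mean of 0.33 FPKM in Lin- and 1.90 in Gr1+Mac1+ cells. With all 65 complete clustered genes and no filter on level, 26 were higher in Gr1+Mac1+ (23.5% of 17660 genes) and 0 in Lin- (36.7%).

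The count was smaller without the pool whose Lin- library stood apart. Leaving out the Het pool, 21 of the 57 (36.8%) were higher in Gr1+Mac1+ cells against 29.1% of all genes, and 0 were higher in Lin- cells, against 49.3%. The clustered share then lay nearer to that of all genes, and the clustered median was 0.38. When each library was rescaled by its median ratio, the median of all genes moved to 0 within 0.01, 39.5% of all genes were higher in Gr1+Mac1+ and 38.6% in Lin-, and the clustered genes had 42 higher, 0 lower and a median of 0.73. In the 3 pools taken singly the median of the clustered genes was 0.41 (WT), 0.67 (Het) and 0.40 (KO). In 28 of the 57 genes all 3 Gr1+Mac1+ libraries lay above all 3 Lin- libraries (31.7% of all genes did), and in 2, Hist2h2be and Hist2h4, named after their values were seen, all Lin- libraries lay above (54.1% of all genes did).

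By type, the shares of calls are set beside the 30.4% of all genes. H2B had 11 of 18 higher in Gr1+Mac1+ with a median of 0.75, H2A 9 of 14 with 0.54, H1 2 of 4 with 0.42, H4 4 of 13 with 0.27 and H3 2 of 8 with 0.15. The H4 and H3 shares (30.8% and 25.0%) were near or under that of all genes. Some called genes had a Lin- mean under 1 FPKM and entered the test only through their Gr1+Mac1+ values. They were Hist1h2ab, Hist1h2ae, Hist1h2ao and Hist2h2ac of H2A, and Hist1h2ba, Hist1h2be and Hist1h2br of H2B. Hist1h1e of H1 and the called H3 genes, Hist1h3a and Hist2h3c1, were such genes too, and no H4 gene was. The differences between types were not tested, and the members of a type share sequence and thus fragments.

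Hist1h1c showed the largest ratio among the histone genes. It stood at 11.3 (WT), 14.6 (Het) and 9.07 (KO) FPKM in Lin- and at 71.5, 64.1 and 66.9 in Gr1+Mac1+ cells, with the groups far apart. Its log2 ratio was 2.46 (SE 0.15, adjusted p = 0.00019 by limma), higher in 3 of 3 pools. Of the other 3 linker histones tested, all under 5 FPKM and named after their values were seen, Hist1h1e alone passed, at 0.91. Its Lin- mean was 0.90 FPKM, so it entered the test only through its Gr1+Mac1+ values. Hist1h1a and Hist1h1b did not pass, with SEs of 0.30 and 0.23. They were at 2.51 ± 0.97 and 3.52 ± 0.99 FPKM in Lin- and 1.43 ± 0.75 and 3.27 ± 0.71 in Gr1+Mac1+ cells. Hist1h1d, left out by the filter, went from 0.52 ± 0.15 to 1.17 ± 0.40 FPKM. Whether the linker histones moved as 1 group was not tested.

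Hist2h2aa1, an H2A gene of the chromosome 3 cluster, was the next. Its FPKM was 2.21, 2.37 and 2.12 in WT, Het and KO Lin- cells and 10.6, 10.3 and 12.1 in Gr1+Mac1+ cells. All Gr1+Mac1+ values were thus more than 4 times the Lin- values, with a log2 ratio of 1.89 (SE 0.098, adjusted p = 0.000138 by limma). Its copy of the same letters, Hist2h2aa2, is listed near 0 FPKM without a complete estimate in every library.

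The H2B gene Hist1h2bg came next among the clustered genes with an FPKM of at least 5 in any library. It stood at 10.7 (WT), 9.55 (Het) and 8.20 (KO) in Lin- and at 38.8, 28.0 and 20.9 in Gr1+Mac1+ cells, so that every Gr1+Mac1+ value lay above every Lin- value while the genotypes differed within Gr1+Mac1+. The log2 ratio was 1.49 (SE 0.118, adjusted p = 0.000368 by limma). Its close copy Hist1h2bc went from 12.6 ± 1.52 to 21.9 ± 1.84 FPKM, a log2 ratio of 0.75 (adjusted p = 0.000596 by limma).

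Other H2B genes of the chromosome 13 cluster rose in the same direction. Hist1h2bf had a log2 ratio of 1.04, Hist1h2bn of 0.91 (7.02 to 7.96 FPKM in Gr1+Mac1+, 3.07 to 4.19 in Lin-), Hist1h2bl of 0.83, Hist1h2bk of 0.78 and Hist1h2bm of 0.75, and all 5 passed the test. Hist1h2bb, Hist1h2bh and Hist1h2bj did not pass, with log2 ratios of 0.50, 0.53 and 0.77, and their fractions overlapped. Leaving out 1 pool ended the call for Hist1h2bk (adjusted p = 0.0705 without the WT pool by limma) and for Hist1h2bm (0.0921 without the WT and 0.0800 without the Het pool).

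Among the H4 genes, all of which encode the same protein, Hist1h4n and Hist1h4m were higher in Gr1+Mac1+ cells, at 0.69 and 0.70 on the log2 scale. Hist1h4k passed at 0.37, a call that ended when any 1 pool was left out (adjusted p 0.0615 to 0.131 by limma). The most abundant H4 gene, Hist1h4i, was at 19.2, 21.0 and 18.4 FPKM in Lin- and at 24.9, 20.7 and 17.9 in Gr1+Mac1+ cells, and the fractions overlapped (log2 ratio 0.10, adjusted p = 0.405 by limma). Hist1h4a, Hist1h4b, Hist1h4c and Hist1h4j did not pass, with ratios of 0.27, 0.23, 0.43 and 0.51, nor did Hist1h4d at -0.39. The H2B genes Hist2h2bb (0.20), Hist2h2be (-0.31) and Hist3h2ba (0.28, and -0.40 without the WT pool) did not pass either. Thus 12 of the 24 genes from 5 FPKM were called, beside 30.4% of all genes tested. Reaching 5 FPKM in any library favours genes that are high in 1 fraction, and the share of all genes under that selection was not taken. No H3 gene of the clusters reached 5 FPKM in any library.

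A few low genes had ratios as large as the abundant ones and are named after their values were seen. Hist1h2br went from 0.68 ± 0.17 to 2.96 ± 0.13 FPKM, Hist2h3c1 from 0.33 ± 0.052 to 1.90 ± 0.20 and Hist1h2ac from 1.08 ± 0.26 to 3.72 ± 0.66, and all 3 passed the test. Hist3h2a, the H2A neighbour of Hist3h2ba on chromosome 11, went from 2.27 ± 0.40 to 4.34 ± 0.55 FPKM (log2 ratio 0.71, adjusted p = 0.00159 by limma), and Hist2h2ac from 0.91 ± 0.38 to 3.44 ± 1.38 (1.18, adjusted p = 0.0189). The H3 genes of chromosome 13 were all under 4 FPKM, and their means lay close in both fractions: Hist1h3d went from 2.02 ± 0.80 to 1.61 ± 0.62 and Hist1h3g from 1.48 ± 0.23 to 1.68 ± 1.43. Of the 7 of them that were tested, Hist1h3a alone passed, at 0.51 on the log2 scale (0.77 ± 0.15 against 1.51 ± 0.07 FPKM). Hist1h2br, Hist2h3c1, Hist2h2ac and Hist1h3a had a Lin- mean under 1 FPKM and so entered the test only through their Gr1+Mac1+ values. On the scale of log2(FPKM + 1) the change of such low genes is understated.

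**Figure D3:**
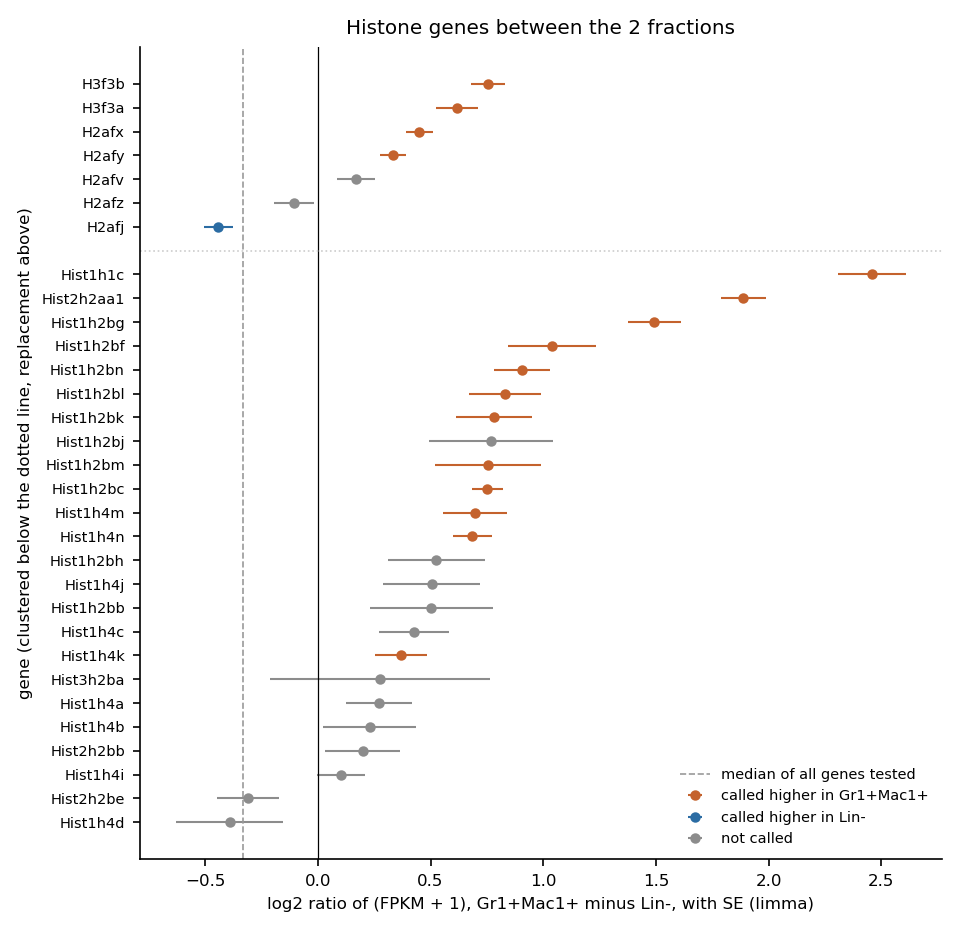
Log2 ratio of FPKM + 1 between Gr1+Mac1+ and Lin- cells, with its SE from limma, for the 24 clustered genes with an FPKM of at least 5 in any library and for 7 replacement genes; orange and blue points passed the test and grey points did not. Hist1h1c at 2.46 lies farthest to the right, and H2afj at -0.44 is the only member that passed toward Lin-.

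Replacement genes with H3.3 in front were higher in Gr1+Mac1+ cells too. Of the 7 tested, 4 were higher in Gr1+Mac1+ (30.4% of all genes were) and 1 in Lin- (51.6%), with a median of 0.33. H3f3b had a log2 ratio of 0.76 (adjusted p = 0.000805 by limma) and H3f3a of 0.62 (0.00307). H2afx, at 62.1, 63.3 and 71.7 FPKM in Lin- and 83.6, 91.7 and 94.9 in Gr1+Mac1+ cells, had a ratio of 0.45 (adjusted p = 0.00203 by limma). H2afy went from 161.1 ± 11.1 to 203.1 ± 9.40 FPKM, a ratio of 0.33 (adjusted p = 0.00537 by limma). In each of these 4 genes the Gr1+Mac1+ libraries lay above all Lin- libraries.

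The H2A.Z genes and H2afj differed from them. H2afz did not pass the test at -0.11 (adjusted p = 0.321 by limma), and after rescaling it turned to 0.28 (adjusted p = 0.0392). H2afv, at 34.4 ± 2.51 FPKM in Lin- and 38.8 ± 1.81 in Gr1+Mac1+ cells, did not pass either (0.17, adjusted p = 0.122 by limma), and did without the Het pool (0.25, adjusted p = 0.0450). H2afj, a replication-independent H2A gene, was higher in Lin- cells in 3 of 3 pools, at 18.6, 21.2 and 18.2 FPKM against 13.7, 14.7 and 13.5. Its log2 ratio of -0.44 passed (adjusted p = 0.00266 by limma), but relative to the median of all genes it was -0.11, and after rescaling it was -0.08 and did not pass (adjusted p = 0.329).

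Most genes that make, process and load histones lay on the other side of 0, to be read against the 51.6% of all genes that were higher in Lin-. Of 14 genes for histone gene transcription and 3' processing, 13 were tested, and 12 of these fell from Lin- to Gr1+Mac1+ while 0 rose (median 0.85 toward Lin-). Slbp, which binds the stem-loops printed above, was at 113.8, 122.3 and 128.2 FPKM in Lin- and 76.9, 63.1 and 75.6 in Gr1+Mac1+ cells. Its log2 ratio was -0.75 (adjusted p = 0.00149 by limma), with the fractions apart and opposite in sign to the median of the clustered genes.

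Chaperones of replication-coupled deposition had 14 of 15 higher in Lin- and 0 in Gr1+Mac1+, with a median of 1.21 toward Lin-. Nap1l1, a carrier of H2A and H2B, went from 301.1 ± 7.91 FPKM in Lin- to 129.7 ± 8.21 in Gr1+Mac1+ cells, Ssrp1, a subunit of the FACT complex, from 209.4 ± 2.77 to 96.3 ± 1.58, and Nasp, a carrier of H1, H3 and H4, from 102.7 ± 1.61 to 39.1 ± 5.35. H3.3 deposition genes were all higher in Lin- (6 of 6, median 0.72), while H3.3 message itself was higher in Gr1+Mac1+. Hira, the H3.3 chaperone, was at 31.6 ± 1.34 FPKM in Lin- and 14.3 ± 1.47 in Gr1+Mac1+ cells.

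For H2A.Z exchange, 9 of 10 tested genes were higher in Lin- (median 0.87), with Anp32e, an H2A.Z chaperone, at 93.1 ± 1.30 against 56.8 ± 3.33 FPKM. Znhit1, a subunit of the complex that puts H2A.Z in, was the exception, at 27.6 ± 2.20 in Lin- and 46.9 ± 2.08 in Gr1+Mac1+ cells. Histone genes outside the symbols followed here had 2 of 3 tested higher in Lin-, among them Cenpa, the centromeric H3, at 134.1 ± 1.66 against 64.0 ± 0.25, while H1f0, the linker histone of differentiated cells, was higher in Gr1+Mac1+ by 0.28 on the log2 scale (adjusted p = 0.0442 by limma); the other 3 were listed at 0 in all libraries. Of the 4 genes of CENP-A deposition, 2 were higher in Lin-, a share near that of all genes.

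S phase genes were higher in Lin- cells in 28 of 29 cases and in Gr1+Mac1+ cells in 1, with a median of 1.20 toward Lin-. Pcna, the replication clamp, was at 494.6 ± 14.4 FPKM in Lin- and 271.6 ± 11.5 in Gr1+Mac1+ cells. Of 12 mitosis genes, 10 fell from Lin- to Gr1+Mac1+ and 0 rose (median 0.43 toward Lin-), and Top2a, which untangles DNA, did not pass at 113.8 ± 5.94 against 106.5 ± 5.59. Rescaling left 24 S phase, 11 processing, 13 deposition, 4 H3.3 and 8 H2A.Z exchange genes higher in Lin-, but only 3 mitosis genes, with 3 mitosis genes higher in Gr1+Mac1+.

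**Figure D4:**
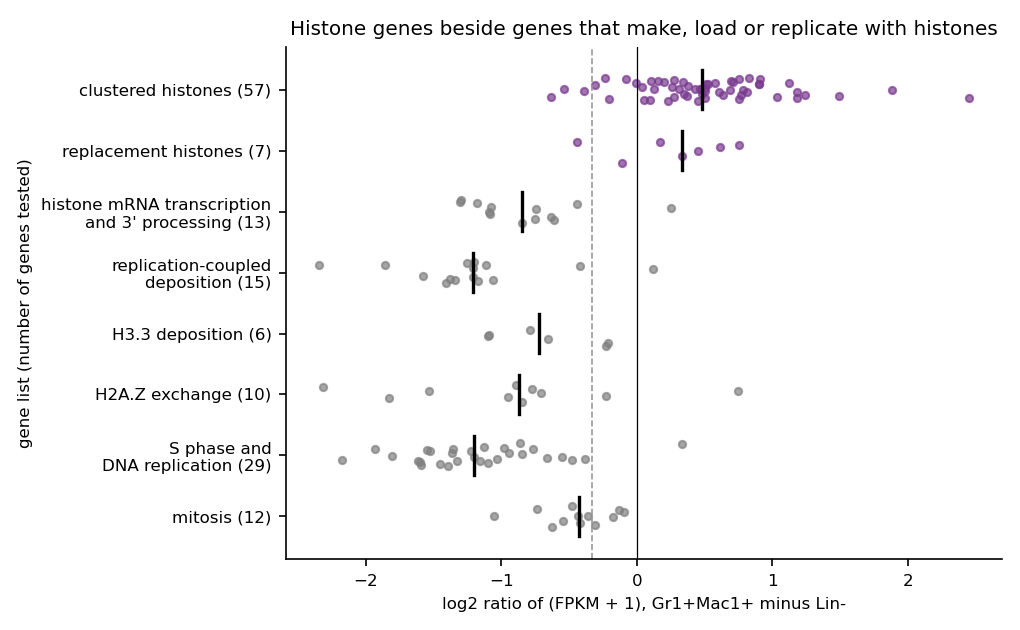
Log2 ratio of FPKM + 1 between Gr1+Mac1+ and Lin- cells for each tested gene of the 2 histone classes (purple) and of 6 lists of genes that make, load or replicate with histones (grey); black bars are medians and the dashed line is the median of all genes. The histone medians of 0.48 and 0.33 lie right of 0, and the medians of all 6 lists lie left of it.

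Deposited gene models differ in where they end relative to the stem-loop. In 13 clustered genes the deposited locus runs at least 100 bases past the stem-loop, a limit chosen after the values were seen. Among them are Hist1h1c (840 bases past), Hist1h2bg (156) and Hist3h2ba (166). All 13 had a positive ratio, with a median of 0.71, and 9 of the 11 tested were higher in Gr1+Mac1+ cells. In the 22 genes whose locus ends before or within 100 bases of it, the median was 0.50 and 10 of 20 tested were higher. In the 32 genes with no match to the stem-loop pattern in the annotated transcript, it was 0.29 and 9 of 26 were higher, near the 30.4% of all genes. That group is set in part by annotation, since some of its transcripts end with the coding sequence. Each group held called genes with a Lin- mean under 1 FPKM, which entered the test only through their Gr1+Mac1+ values. In the first group these were Hist1h1e, Hist1h2ae, Hist1h2be and Hist2h3c1. The ratios of the 3 groups overlapped widely (0.16 to 2.46, -0.39 to 1.89 and -0.63 to 1.24), and no test compared them. The groups differ in level too, with median FPKM in Lin- of 1.08, 2.91 and 1.21, and what the level contributes was not tested.

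Genotypes were compared within a fraction between 1 library and another, with no test. A gene was called by size, where the 2 libraries differed 2-fold or more on log2(FPKM + 1), the higher one reached 5 FPKM and the deposited intervals lay apart. The comparisons with WT share the WT library of the fraction. The class medians of the 6 comparisons are given beside those of all genes. In KO against WT the median was 0.08 for clustered and 0.14 for replacement genes in Lin-, and -0.10 and 0.12 in Gr1+Mac1+ cells. In Het against WT it was -0.10 and 0.12 in Lin- and -0.03 and -0.12 in Gr1+Mac1+ cells, with the medians of all genes within 0.01 of 0. KO against Het gave 0.28 and 0.01 in Lin-, the farthest of the clustered medians from 0, and -0.06 and 0.10 in Gr1+Mac1+ cells. The median counting SE of a clustered gene was 0.44 to 0.53 in these comparisons, so that small changes of single clustered genes were not detectable at this depth.

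By size, 2 clustered genes were higher in KO than in WT Lin- cells, of 17 with enough signal, against 0.182% of all genes, and 0 were lower, against 0.0484%. Both are H2B genes outside the large cluster. Hist3h2ba (chr11:58948911-58949530) had 1.24 FPKM in WT Lin- cells (interval 0.302 to 2.17). Het Lin- cells had 2.21 (0.932 to 3.48) and KO Lin- cells 5.52 (3.46 to 7.59), a log2 ratio of 1.54 (counting SE 0.378) for KO against WT. The 3 values rest on an implied 7.0, 12.0 and 28.5 fragments. Hist2h2bb (chr3:96269700-96270192) had 2.54 FPKM in WT (0.934 to 4.15), with Het at 5.55 (3.13 to 7.98) and KO at 7.81 (4.86 to 10.8), on 10 to 28.0 fragments. Summed megakaryocyte markers differed between these libraries as well (331.7 WT, 456.3 Het, 222.8 KO), while erythroid sums were 841.3 to 890.2; what they contribute was not tested. In both genes the Het interval overlaps those of WT and KO. After rescaling, Hist2h2bb alone passed, with Hist3h2ba at 1.48.

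In Gr1+Mac1+ cells the order of the genotypes was another. Hist3h2ba had 5.93 FPKM in WT (4.00 to 7.85), with Het at 2.21 (0.958 to 3.45) and KO at 2.75 (1.23 to 4.28), and was called lower in Het than in WT at -1.11 (counting SE 0.345), 1 of 22 clustered genes against 0.132% of all genes. WT was thus its lowest library in Lin- and its highest in Gr1+Mac1+ cells. Hist2h2bb was at 4.27 (WT), 6.60 (Het) and 6.72 (KO), with overlapping intervals. The other comparisons called no clustered gene. In KO against WT Gr1+Mac1+ cells, 0 of 23 were higher (0.0599% of all genes) and 0 lower (0.132%). In Het against WT, 0 of 22 were higher in Gr1+Mac1+ cells (0.048%), and 0 of 11 were higher (1.7%) or lower (0.0836%) in Lin- cells. In KO against Het, 0 of 15 were higher (0.119%) or lower (1.52%) in Lin- cells, and 0 of 20 higher (0.0838%) or lower (0.0958%) in Gr1+Mac1+ cells. Replacement genes gave 0 of 7 in each of the 6 comparisons.

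Some abundant members had intervals apart below 2-fold. Hist1h2bg fell by 0.86 on the log2 scale in KO and by 0.46 in Het against WT Gr1+Mac1+ cells, in intervals of 16.7 to 25.1 (KO), 23.5 to 32.4 (Het) and 33.8 to 43.7 FPKM (WT). In Lin- cells its 3 intervals overlapped. Erythroid markers followed the same order in these Gr1+Mac1+ libraries, with sums of 561.9 (WT), 392.7 (Het) and 334.3 FPKM (KO), a median log2 ratio of -0.86 in KO and -0.51 in Het against WT, and Klf1 and Rhag past the size rule in KO; their part in the values of Hist1h2bg and Hist3h2ba was not tested. It was the only clustered gene of 23 that lay lower with intervals apart in KO than WT Gr1+Mac1+ cells (6.33% of all genes did), and 0 lay higher (6.55%). Hist1h1c was lower in Het than WT Gr1+Mac1+ cells, with a log2 ratio of -0.16; 3 of 22 clustered genes lay lower there with intervals apart (10.3% of all genes did) and 0 higher (9.99%). Hist1h1c was also 1 of 15 with intervals apart and lower in KO than Het Lin- cells, at -0.63 (7.57% of all genes did). The Het Lin- library held neutrophil markers, and their part in this value was not tested. Hist2h2be was higher in KO than in WT Lin- cells, at 5.33 (4.49 to 6.18) against 3.55 FPKM (2.89 to 4.203), one of 3 among 17 clustered genes with intervals apart and higher (7.02% of all genes were), with 0 lower (9.36%). It was also 1 of 15 with intervals apart and higher in KO than Het Lin- cells (4.27% of all genes did). In Het against WT Lin- cells 0 of 11 lay higher (8.59%) or lower (7.78%), and in KO against Het Gr1+Mac1+ cells 0 of 20 lay higher (12.1%) or lower (10.8%).

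**Figure D5:**
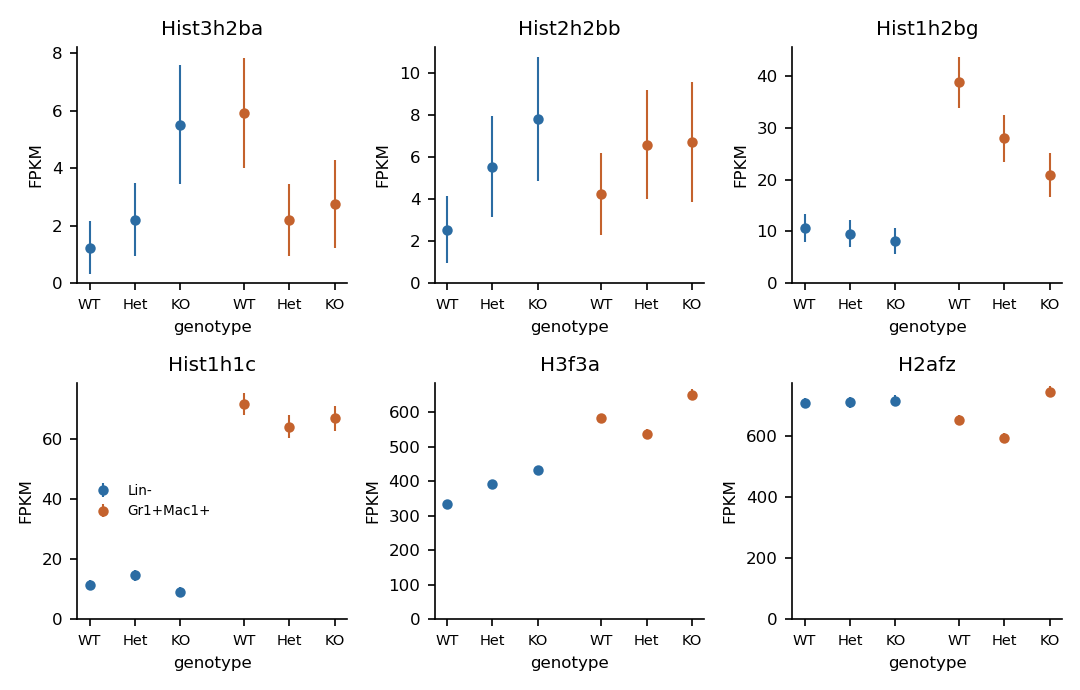
FPKM of 6 histone genes in each library by genotype and fraction, with the deposited confidence intervals as bars. Hist3h2ba is lowest in WT Lin- (1.24) and highest in WT Gr1+Mac1+ (5.93), Hist1h2bg goes from 38.8 in WT to 20.9 in KO Gr1+Mac1+, and H3f3a from 333.5 in WT to 431.7 in KO Lin-.

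The replacement genes had narrow intervals, and their differences between genotypes were under 2-fold. In KO against WT Lin- cells, 4 of 7 had intervals apart and higher (H3f3a, H3f3b, H2afx and H2afy), beside the same 7.02% of all genes, with log2 ratios of 0.37, 0.08, 0.21 and 0.14. H3f3a was the one of them with a ratio above 0.25, from 333.5 FPKM in WT (322.9 to 344.1) over 393.1 in Het to 431.7 in KO (419.1 to 444.4). In KO against WT Gr1+Mac1+ cells, H3f3a, H2afx, H2afy and H2afz were higher by 0.16 to 0.19 or, for H2afy, by 0.12 (4 of 7, where 6.55% of all genes were). In Het against WT Gr1+Mac1+ cells, H2afz, H3f3a and H3f3b were lower by ratios of -0.14, -0.12 and -0.13 (3 of 7, where 10.3% of all genes were). In Het against WT Lin- cells, H3f3a and H3f3b were higher by 0.24 and 0.12 (2 of 7, 8.59% of all genes). In KO against Het, H2afy and H3f3a were higher in Lin- cells by 0.19 and 0.14 (2 of 7, 4.27%), and H2afz, H3f3a and H3f3b in Gr1+Mac1+ cells by 0.33, 0.28 and 0.10 (3 of 7, 12.1%). Summed neutrophil markers stood in the same order as H2afz and H3f3a in Gr1+Mac1+ cells, at 145800 (WT), 136500 (Het) and 164700 FPKM (KO). Most of that sum is S100a8 and S100a9 (50660 and 56570 in WT). Ltf (3710, 3940 and 4064), Mmp9, Cd177 and Itgam had another order. Summed T and NK markers, at 44.2, 37.3 and 47.2, had the same order as the neutrophil sum. The part of these cells was not tested. With 1 library a group, these intervals hold no spread between mice, so differences of this size cannot be told apart from those between libraries.

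In none of the 8 lists of genes for histone processing, deposition, S phase and mitosis did a member pass by size in any of the 6 comparisons. Of all genes, 0.048% to 1.7% passed in a direction, so in lists this short the lack of calls says little about their genes. Slbp stood within 113.8 to 128.2 FPKM over the 3 Lin- libraries and Pcna within 478.4 to 505.9.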

How the data were processed

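The authors deposited FPKM for 23746 gene loci in each of 6 libraries, with lower and upper bounds and a status, per the file headers. Per the submitters' processing notes, TopHat2 2.0.7, Cufflinks 2.0.2 and mm10 were used, while the sources used here give neither annotation nor strand nor interval level. A symbol with 2 rows was counted once. Clustered genes are those named Hist, all others are replacement variants. The members and lists were chosen with earlier results of these data known. The fraction comparison used log2(FPKM + 1), status OK in all libraries and limma 3.58.1 in R 4.3.3, fitted with trend and with the pool as a block. Per the labels' protocols, the same pooled mice gave both fractions, and their deviations correlated by 0.10 (WT), -0.06 (Het) and -0.01 (KO). Genotypes were compared by size only, since a group is 1 library. The fit was also run on simulated data in which every gene had the same small spread. That run does not bear on clustered genes with a larger SE. Implied fragments are the square of 2 times FPKM over the distance from FPKM to the upper bound; they came to 8630000 to 11600000 a library. FPKM divides by the library total, of which the 10 most abundant genes held 8.72% to 10.5% in Lin- and 25.1% to 27.8% in Gr1+Mac1+ cells. Named are all members with an FPKM of at least 5 in any library, those past the size rule, replacement genes from 1 FPKM, and up to 5 most abundant genes of a list. Of the listed genes, Srcap, Ahsp and Ly6g were not matched. Promoters of 59 clustered and 7 replacement genes were matched to RefSeq by symbol and position. Other tools were Python 3.11.15 with pandas 2.3.3, numpy 2.4.6 and, for figures, matplotlib 3.10.9.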

Additional observations from a re-analysis of the deposited data

Results flagged for a closer look

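Hist3h2ba had ratios of opposite sign in the 2 fractions. In KO against WT Lin- cells gave a log2 ratio of 1.54 and Gr1+Mac1+ cells one of -0.88. Het against WT gave 0.52 and -1.11. Each value compares 1 library with another, and the difference between fractions was not tested. All 4 ratios rest on the WT libraries, on an implied 7.0 fragments in Lin- and 38.0 in Gr1+Mac1+ cells.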

How the results depend on the processing

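The clustered count of 28 higher in Gr1+Mac1+ cells became 10 of 18 at a mean FPKM of at least 5 (29.2% of all genes), where fewer genes were tested, and ranged from 21 to 29 on leaving out a pool, with 0 higher in Lin- under every alternative. The clustered median of 0.48 was 0.66 and 0.21 with pseudocounts of 0.1 and 5, 0.72 at a mean FPKM of at least 5 and 0.73 after rescaling; that of replacement genes was 0.72 after rescaling. Replacement genes higher in Lin- were 2 without a filter and 0 after rescaling. H2afz turned to 0.28 after rescaling, and Hist1h4i and Hist3h2ba turned without the WT pool (ranges on leaving out a pool -0.027 to 0.172 and -0.399 to 0.816). With no replicate block, 29 clustered and 4 replacement genes were higher in Gr1+Mac1+ and 1 replacement gene in Lin-. The 2 genes higher in KO than WT Lin- were 0 with a pseudocount of 5, at 20 FPKM or at 3-fold, and 1 after rescaling. The gene lower in Het than WT Gr1+Mac1+ was 0 with a pseudocount of 5, at 20 FPKM or at 3-fold. At 1.5-fold, 1 clustered gene, Hist1h1c, was lower in KO than Het Lin- and 1, Hist1h2bg, in KO than WT Gr1+Mac1+; without the interval criterion, 1, Hist3h2ba, was higher in KO than Het Lin-. Without the most abundant gene of each type, the ratio of clustered sums was 1.55 in place of 1.88 and that of H1 1.15 in place of 3.98. Where not stated, the cause was not tested. Few fragments per clustered gene and 1 library a group limit every genotype comparison.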
